A study of Homo sapiens with 5 samples.

Results

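Translation factors are the proteins that load an mRNA and the initiator tRNA onto the ribosome (eukaryotic initiation factors, eIF) and that feed it aminoacyl-tRNA and move it along the message (elongation factors, eEF). The genes described here were chosen by name, as those starting with EIF1 to EIF6 or with EEF1 or EEF2, leaving out EEF1E1, EIF2AK3, the lysine methyltransferases and antisense genes. The rule found 64 of the 26485 genes in the count files. Messenger RNA was read from its 3' ends in 5 libraries. All came from SW480 cells, a widely used line from a human colorectal tumour, that expressed dCas9-KRAB, a nuclease-dead Cas9 joined to a repressor domain that silences the promoter to which a guide RNA leads it. In 2 libraries the cells had received control guides and in 3 a guide against AKAP12, a scaffold protein for protein kinases A and C. RNA was taken 48 hours after seeding in both groups. The titles name the groups shControl and shAKAP12 while the treatment text names guide RNAs, so the silencing method is labelled in 2 ways, and nothing in the labels says whether libraries came from separate cultures or lines. The p-values therefore measure the spread between these libraries, which may be technical.

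Initiation starts when eIF2, bound to GTP and initiator tRNA, joins the small ribosomal subunit together with eIF1, eIF1A, eIF3 and eIF5. The cap-binding complex eIF4F brings the mRNA, eIF5B joins the large subunit, and eIF2B reloads eIF2 with GTP. During elongation eEF1A delivers aminoacyl-tRNA, its exchange factor complex (eEF1B2, eEF1D and eEF1G) reloads it, and eEF2 moves the ribosome on.

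Total counts ran from 4935096 to 9311026 per library. The targeted gene AKAP12 was at 2870 and 1550 CPM in the controls (CPM are counts scaled to a common library total, here with the TMM composition factors of edgeR) and at 1159, 1063 and 1008 CPM in the knockdown. Its fitted log2 change was -1.04 (SE 0.31, edgeR adjusted p = 0.0513). Over its alternatives that adjusted p ran from 1.09e-08 (edgeR without control 2) to 0.298 (edgeR with a replicate block), and without control 1 its log2 fold change was -0.52. The 2 controls lay further apart (chi-square per degree of freedom 104) than any knockdown pair (5.30 to 8.67). TERT held 7.43% and 3.54% of the control counts and 0.0451% to 0.249% of the knockdown counts, and short non-coding RNA genes held 8.64% and 1.73% against 0.641% to 0.928%. Of 12 markers of colorectal epithelium, 5 reached 10 CPM in every library and CDX1 was at 0 in every library. Of 10 stromal markers 9 did so, and of 11 blood markers 3. The summed level of the epithelial list was 870 and 1607 CPM by library total in the controls and 1504 to 1753 in the knockdown, that of the stromal list 407 and 625 against 590 to 699, and that of the blood list 111 and 154 against 118 to 152. The part of the marker differences in the results below was not tested. When TERT and the short RNA genes were removed before scaling, an alternative chosen after seeing the data, all 21 members called below were called again in the same direction by edgeR, as were EIF3F and EIF5A, giving 15 higher and 8 lower (background 23%).

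Individual translation factor genes moved in both directions. After TMM scaling their summed level was 14050 and 14250 CPM in the controls and 14860, 14510 and 14950 CPM in the knockdown. As a share of all counts, without that scaling, they held 1.16% and 1.43% of control libraries, against 1.56%, 1.57% and 1.57% of knockdown libraries. Every knockdown library was thus above both controls on both scales, but groups also did not overlap for 60.1% of all tested genes taken singly. TERT and short non-coding RNA genes held 7.43% and 8.64% of control 1 counts, and their part in its lower member share was not tested. Of the 59 members with enough reads to test, 13 rose and 8 fell in the knockdown (edgeR quasi-likelihood test, adjusted p under 0.05 over all genes tested), and 38 did not pass. Missing the threshold does not show that a gene was unchanged. Of the tested members 22.0% were called higher and 13.6% lower, against a background of 11.2% higher and 11.4% lower (22.6% in either direction) over 14536 tested genes, or 29% in either direction among the 11608 more abundant genes that passed a stricter filter. The median log2 fold change was 0.21 over the members and 0.04 over all tested genes. In a bulk measurement less RNA per cell and fewer expressing cells cannot be told apart.

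The groups did not overlap for 38 of the 59 tested members (64.4%), against 60.1% of all tested genes. These 38 included all 21 members that passed. In 30 of the 59 (50.8%, against 47.3% of all tested genes) control 2 lay between control 1 and every knockdown library. Control 1 thus often stood farther from the knockdown than control 2 did, and without it 17 of the 21 fold changes were closer to 0. With 1 control left, a fit that assumes it varies like the knockdown libraries called 23 members higher and 14 lower without control 1 (background 37.3%), and 22 higher and 19 lower without control 2 (background 58.1%). The directions of all 21 were the same in both fits, which groups that do not overlap nearly fix in advance. Without any one of the knockdown libraries edgeR called 0 of 59 members and 0 of all genes, with adjusted p from 0.0842 to 0.174 for the 21 members. In those fits 24 to 26 of the 59 members had an unadjusted edgeR p under 0.05, a larger share than the 26.3% to 28.8% of all tested genes. Scaling by library size only, which shifted the median of all genes by 0.20, gave 12 higher and 4 lower, in place of 13 and 8 (background 11.5% higher and 6.76% lower).

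**Figure D1:**
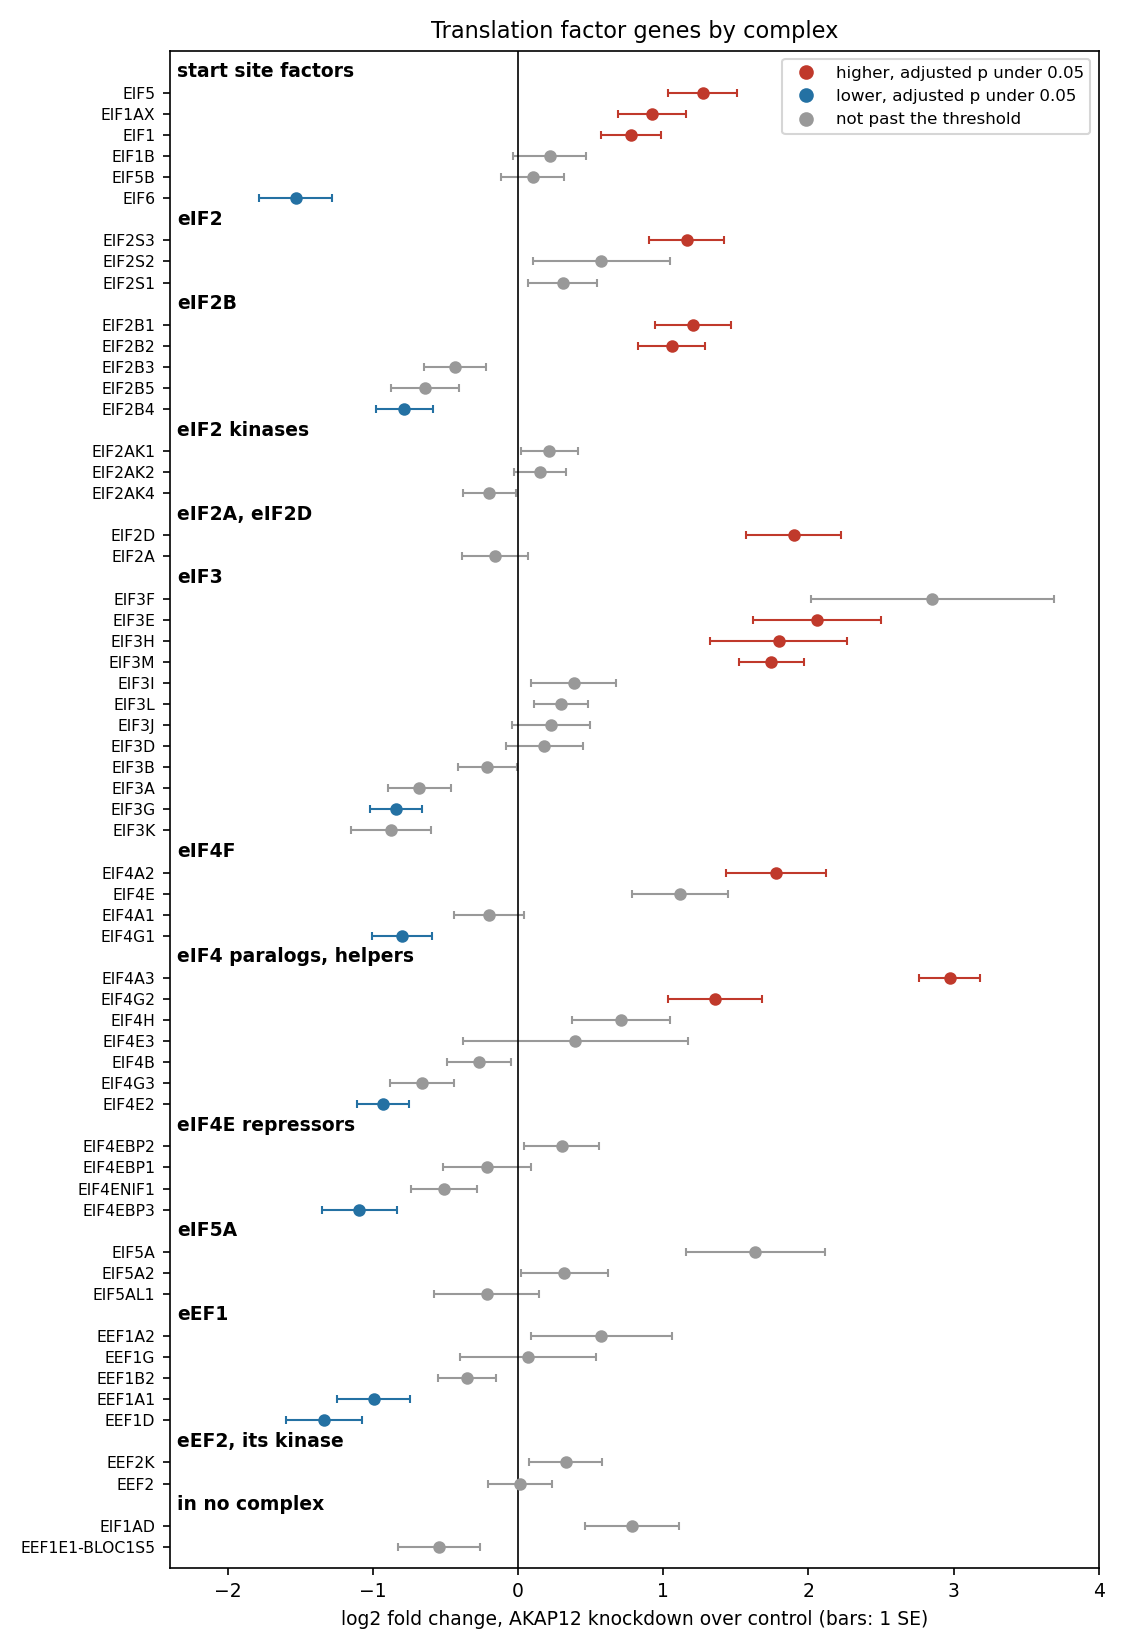
Log2 fold change of AKAP12 knockdown over control (x axis, bars are 1 SE) for the tested translation factor genes, grouped by complex; red marks genes called higher, blue lower and grey those not past the threshold. EIF4A3 (2.97) is farthest to the right among the called genes and EIF6 (-1.53) farthest to the left, and subunits of eIF2B, eIF3 and eIF4F lie on both sides of 0.

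Many translation factor mRNAs begin with a terminal oligopyrimidine tract, a cap-adjacent run of C and T bases through which mTORC1 controls their translation. RefSeq start positions (build GRCh38.p14) were found for 51 of the 64 members. In 11 of these (21.6%) the annotated first base was a C followed by at least 4 bases that are each C or T, read on the transcribed strand only, against 4.07% of 35116 promoters. The tract was present in 4 of 11 members that rose, 1 of 6 that fell and 6 of 32 that did not pass. The median log2 fold change was 0.18 with the tract and 0.18 without. The lines below give 10 bases before and 20 bases from the annotated start (30 in all), with the tract in capitals, for tract members that were lower (EEF1A1), not past the threshold (EEF2) or higher (EIF2S3, EIF3M, EIF4A2), and then for EIF4A1, EIF4A3 and EIF6, which had none.
EEF1A1 (chr6:73521013-73521042, minus strand): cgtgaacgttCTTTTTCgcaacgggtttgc
EEF2 (chr19:3985444-3985473, minus strand): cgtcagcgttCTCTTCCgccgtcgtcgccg
EIF2S3 (chrX:24054946-24054975, plus strand): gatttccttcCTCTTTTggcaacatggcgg
EIF3M (chr11:32583821-32583850, plus strand): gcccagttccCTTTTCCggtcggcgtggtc
EIF4A2 (chr3:186783567-186783596, plus strand): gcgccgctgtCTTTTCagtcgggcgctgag
EIF4A1 (chr17:7572815-7572844, plus strand): ggcactccgccctagtttctaaggatcatg
EIF4A3 (chr17:80147109-80147138, minus strand): cggcagcggcacagcgaggtcggcagcggc
EIF6 (chr20:35284698-35284727, minus strand): tggtaagctggtgtgaggggaacctgggag
A match describes these letters only, and a start with no match says only that the tract is not at the annotated base.

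Among the factors that act at the start codon and at subunit joining, 3 of 7 rose (EIF1, EIF1AX and EIF5) and 1 fell (EIF6). The background over all tested genes was 11.2% higher and 11.4% lower. Counts of calls in complexes this small are a description, here and below. EIF5, the GTPase-activating protein of eIF2 (chromosome 14, 103334002 to 103345024, hg38), was at 113 and 165 CPM in the controls and at 313, 328 and 368 CPM in the knockdown. It was 2.41-fold higher (log2 1.27, SE 0.24, edgeR adjusted p = 0.0210), and the lowest knockdown library stood well above the higher control. EIF1AX, the X-linked gene of eIF1A, which steadies the scanning ribosome, rose from 125 and 187 CPM to 308, 285 and 295 CPM (296 ± 11.7, SD, n = 3). Its log2 change of 0.92 (SE 0.24, edgeR adjusted p = 0.0368) lost its call with GC offsets, at an edgeR adjusted p of 0.127 (range 0.00643 to 0.127 over the fits with all 5 libraries and no block). EIF1, the gatekeeper of start codon choice, was at 293 and 318 CPM in the controls and at 469, 535 and 570 CPM in the knockdown, a log2 change of 0.78 (SE 0.21, edgeR adjusted p = 0.0400). The controls differed little from each other for this gene, and the change was 0.72 without control 1 and 0.83 without control 2.

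EIF6, which keeps free large subunits from joining small ones (chromosome 20, 35278906 to 35284816), went the other way. It fell from 809 and 557 CPM to 274, 232 and 202 CPM, 2.90-fold lower (log2 -1.53, SE 0.25, edgeR adjusted p = 0.0170). Every knockdown library was below both controls, and the log2 change was -1.24 without control 1. EIF5B, the GTPase that joins the subunits, was at 1193 and 1153 CPM in the controls and at 1270, 1184 and 1316 CPM in the knockdown, with overlapping groups (log2 0.10, SE 0.21, edgeR adjusted p = 0.754). The log2 change of EIF1B, a close copy of EIF1, was 0.22 (edgeR adjusted p = 0.545). EIF1AY, the Y-linked copy of EIF1AX, did not pass, and its levels are not given.

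In the eIF2 complex the gamma subunit rose and the other 2 did not pass. EIF2S3, which holds the GTP and the initiator tRNA (chromosome X, 24054948 to 24078811), was at 97.5 and 153 CPM in the controls and at 262, 268 and 314 CPM in the knockdown, 2.24-fold higher (log2 1.16, SE 0.26, edgeR adjusted p = 0.0273). EIF2S1, the alpha subunit on which stress kinases act, was at 143 and 100.6 CPM and at 142, 137 and 172 CPM (log2 0.31, SE 0.23, edgeR adjusted p = 0.363), so control 1 lay inside the range of the knockdown. EIF2S2, the beta subunit, was at 274 CPM in control 1 but at 910 CPM in control 2, and at 989, 838 and 817 CPM in the knockdown. The distance between its controls exceeded that between control 2 and the knockdown, and the log2 change of 0.57 (SE 0.47, edgeR adjusted p = 0.397) was -0.04 without control 1 and 1.68 without control 2.

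Of the 5 subunit genes of the eIF2B exchange factor, 2 were higher and 1 lower (background 11.2% higher and 11.4% lower). EIF2B1 (alpha) rose from 17.6 and 15.9 CPM to 32.8, 34.7 and 48.3 CPM (log2 1.20, SE 0.26, edgeR adjusted p = 0.0264), and EIF2B2 (beta) from 31.8 and 45.9 CPM to 78.1, 80.8 and 84.8 CPM (log2 1.06, SE 0.23, edgeR adjusted p = 0.0258). Exons of EIF2B1 share 38 bases with GTF2H3. EIF2B4 (delta) fell from 121 and 138 CPM to 80.6, 79.0 and 65.7 CPM (log2 -0.79, SE 0.20, edgeR adjusted p = 0.0347). Scaling by library size only, the EIF2B4 call was lost (edgeR adjusted p = 0.108, range 0.0113 to 0.108 over the same fits). The catalytic subunits EIF2B3 (gamma, log2 -0.43, edgeR adjusted p = 0.171) and EIF2B5 (epsilon, log2 -0.65, edgeR adjusted p = 0.0868) did not pass. All knockdown libraries were below both controls for each, but groups did not overlap for 60.1% of all tested genes.

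Of the 3 kinases of eIF2 alpha among the members, none passed. EIF2AK1 (heme-regulated), EIF2AK2 (activated by double-stranded RNA) and EIF2AK4 (activated by uncharged tRNA) had log2 fold changes of 0.21, 0.15 and -0.20, each with an SE of 0.18 to 0.19 and edgeR adjusted p from 0.439 to 0.561. The sign of EIF2AK4 turned by library size only (0.01) and that of EIF2AK2 with GC offsets (-0.08). EIF2D, which can place tRNA in the P site without eIF2 and helps recycle ribosomes, rose 3.73-fold from 5.14 and 3.10 CPM to 15.6, 14.9 and 14.3 CPM (log2 1.90, SE 0.33, edgeR adjusted p = 0.0181). These levels rest on 21 and 27 reads in the controls and 111 to 152 in the knockdown. EIF2A, an initiator tRNA carrier unrelated to eIF2, had a log2 change of -0.16 (edgeR adjusted p = 0.628), which was 0.07 by library size only.

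Of the 14 eIF3 genes, 12 could be tested. eIF3 is the largest initiation factor and bridges the small subunit, eIF4F and the mRNA. EIF3E, EIF3H and EIF3M rose, EIF3G fell, and 8 did not pass (background 11.2% higher and 11.4% lower). The median log2 change of the 12 was 0.26. The subunits eIF3f, eIF3h and eIF3m form 1 module of the complex, of whose genes EIF3H and EIF3M passed and EIF3F did not. EIF3M (chromosome 11, 32583767 to 32602873) was at 102 and 110 CPM in the controls, which hardly differed, and at 319, 329 and 413 CPM in the knockdown. It was 3.35-fold higher (log2 1.74, SE 0.22, edgeR adjusted p = 0.0131), with 1.69 without control 1 and 1.79 without control 2. EIF3M shares 595 of its 1720 exon bases with CCDC73, and reads there count for both genes. EIF3E rose 4.16-fold, from 8.82 and 25.5 CPM to 67.3, 64.4 and 87.5 CPM (log2 2.06, SE 0.44, edgeR adjusted p = 0.0255). Its log2 change was 1.52 without control 1, where it held 36 reads, and 3.04 without control 2.

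EIF3H rose from 24.3 and 77.1 CPM to 165, 158 and 210 CPM (log2 1.79, SE 0.47, edgeR adjusted p = 0.0390). The control pair spans a wide range here, with a log2 change of 1.20 without control 1 and 2.87 without control 2. Its call was lost by library size only and with GC offsets (edgeR adjusted p up to 0.0622, range 0.00109 to 0.0622). EIF3F had the largest ratio between the controls of the 12 tested eIF3 genes, with 3 reads (0.735 CPM) in control 1 and 134 reads (15.4 CPM) in control 2 against 54.3, 60.3 and 73.6 CPM in the knockdown. Its log2 change of 2.85 (SE 0.84) just missed the threshold (edgeR adjusted p = 0.0509, range 0.0152 to 0.0715). Against control 2 alone the ratio was 4.05 (exact 95% counting interval 3.39 to 4.87) and against control 1 alone 84.7 (28.9 to 411), both for counting error only.

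Other eIF3 subunits were lower or near the controls. EIF3G, an RNA-binding subunit, was at 306 and 305 CPM in the controls and at 173, 170 and 168 CPM in the knockdown, so both groups were tight (log2 -0.84, SE 0.18, edgeR adjusted p = 0.0243). By library size only and with GC offsets the call of EIF3G was lost (edgeR adjusted p up to 0.0552, range 0.00127 to 0.0552). EIF3A, the largest scaffold subunit, was at 1798 and 1487 CPM in the controls and at 1066, 996 and 1012 CPM in the knockdown (log2 -0.68, edgeR adjusted p = 0.0647), and it passed with DESeq2, limma-voom and GC offsets (adjusted p from 0.0192 to 0.1275 over the fits). EIF3K, a peripheral subunit, was at 644 and 362 against 293, 270 and 259 CPM (log2 -0.88, edgeR adjusted p = 0.0600), and it passed with DESeq2 (adjusted p from 0.0310 to 0.0929 over the fits). For both, each knockdown library lay below each control, but groups did not overlap for 60.1% of all tested genes. EIF3B, EIF3D, EIF3I, EIF3J and EIF3L had log2 fold changes between -0.21 and 0.38 with edgeR adjusted p from 0.269 to 0.636. Among these 5 only EIF3L had groups that did not overlap, at 120.3 and 119.5 CPM in the controls and at 138, 144 and 159 CPM in the knockdown (log2 0.30, picked after its values were seen). EIF3J shares 108 exon bases with SPG11 and EIF3G 116 with P2RY11.

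**Figure D2:**
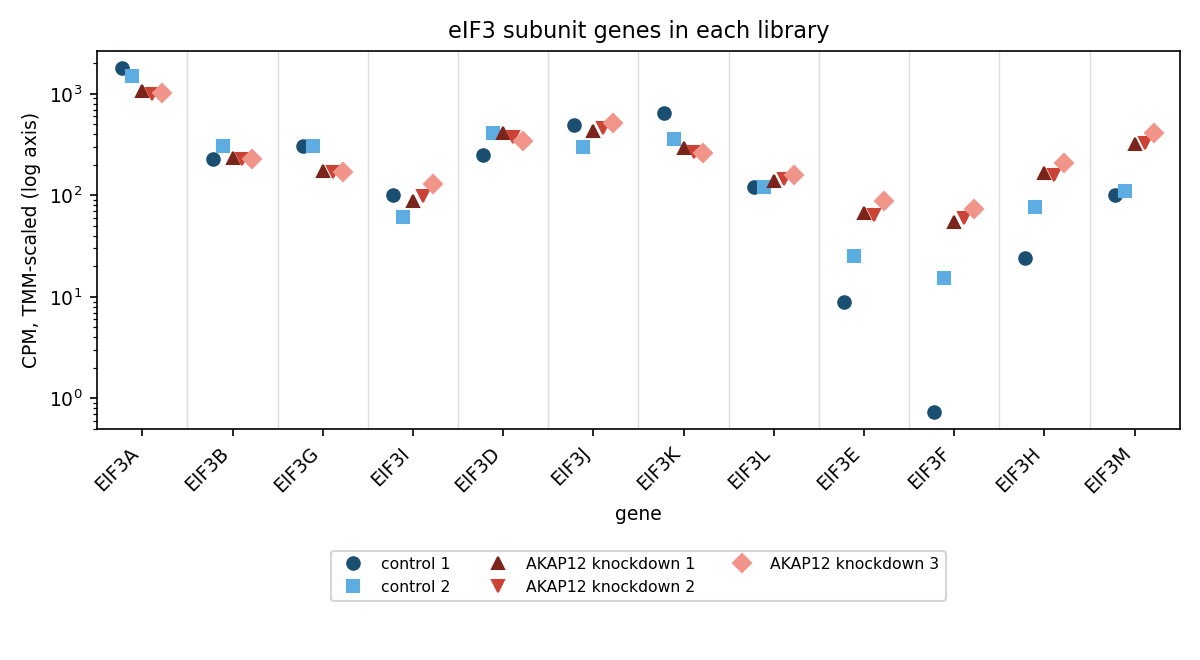
TMM-scaled CPM (y axis, log scale) of the 12 tested eIF3 subunit genes in each of the 5 libraries, with 1 marker per library. For EIF3E, EIF3F, EIF3H, EIF3L and EIF3M all knockdown markers lie above both controls, with control 1 of EIF3F at 0.735 CPM, and for EIF3A, EIF3G and EIF3K they lie below.

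Of the 4 genes of eIF4F, the cap-binding complex, 1 rose and 1 fell (background 11.2% higher and 11.4% lower). The helicase paralog EIF4A2 rose, the scaffold EIF4G1 fell, and the cap-binding subunit EIF4E and the main helicase EIF4A1 did not pass. EIF4A2 (chromosome 3, 186783572 to 186789896) was at 20.3 and 42.3 CPM in the controls and at 109, 94.0 and 122 CPM in the knockdown, 3.43-fold higher (log2 1.78, SE 0.34, edgeR adjusted p = 0.0215). Its log2 change was 1.36 without control 1 and 2.41 without control 2. EIF4G1, which joins the cap-binding subunit, the helicase and the poly(A)-binding protein, fell from 864 and 743 CPM to 505, 453 and 426 CPM (log2 -0.80, SE 0.21, edgeR adjusted p = 0.0375). The EIF4G1 call was lost by library size only and with GC offsets (edgeR adjusted p up to 0.0750, range 0.00638 to 0.0750).

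EIF4E, which binds the cap itself, was at 13.2 and 28.2 CPM in the controls and at 47.2, 44.9 and 44.6 CPM in the knockdown. The groups did not overlap, as for 60.1% of all tested genes. The log2 change of 1.12 (SE 0.33) missed the threshold (edgeR adjusted p = 0.0523, range 0.0170 to 0.111), and it was 0.69 without control 1 and 1.78 without control 2. EIF4A1 was at 1083 and 733 CPM in the controls and at 768, 796 and 805 CPM in the knockdown, so control 2 lay below every knockdown library and control 1 above them. Its log2 fold change was -0.20 (SE 0.24, edgeR adjusted p = 0.564) and 0.04 by library size only. All its 1877 exon bases are also exons of the read-through gene SENP3-EIF4A1, so reads there count for both genes.

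Among the paralogs and helpers, EIF4A3 and EIF4G2 rose and EIF4E2 fell. EIF4A3, an eIF4A paralog that serves in the exon junction complex rather than in eIF4F (chromosome 17, 80135214 to 80147183), had the largest rise of all members that passed. It was at 14.5 and 16.1 CPM in the controls and at 115, 126 and 120 CPM in the knockdown (120.2 ± 5.42, SD, n = 3), 7.85-fold higher (log2 2.97, SE 0.21, edgeR adjusted p = 0.0124). Both groups were tight, and the log2 change was 2.90 without control 1 and 3.05 without control 2. EIF4G2, an eIF4G-like scaffold that lacks the cap-binding arm and serves cap-independent initiation, rose from 381 and 730 CPM to 1440, 1393 and 1431 CPM (log2 1.35, SE 0.32, edgeR adjusted p = 0.0311). With GC offsets its call was lost (edgeR adjusted p = 0.0527, range 0.00055 to 0.0527).

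EIF4E2, a cap-binding homolog that represses translation, fell 1.91-fold, from 260 and 272 CPM to 149, 136 and 134 CPM (log2 -0.93, SE 0.18, edgeR adjusted p = 0.0217). The controls agreed closely for EIF4E2, and the change was -0.96 and -0.90 without control 1 and control 2. The third eIF4G gene, EIF4G3, was at -0.66 (edgeR adjusted p = 0.0705), and the helicase cofactors EIF4B and EIF4H at -0.27 and 0.71 (edgeR adjusted p = 0.395 and 0.162). EIF4E3 rested on 11 to 48 reads per library and gave 0.39 with an SE of 0.77.

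Of the genes whose products hold eIF4E away from eIF4G, EIF4EBP3 fell and the others did not pass. EIF4EBP3 was at 29.6 and 20.0 CPM in the controls and at 12.1, 12.1 and 10.5 CPM in the knockdown (log2 -1.09, SE 0.26, edgeR adjusted p = 0.0312). It shares 516 of its 691 exon bases with the read-through gene ANKHD1-EIF4EBP3, and its call was lost with GC offsets (edgeR adjusted p = 0.0546, range 0.0124 to 0.0546). EIF4EBP1, the main mTORC1-regulated repressor, was at 48.5 and 48.4 CPM and at 38.0, 29.5 and 57.8 CPM, so the knockdown libraries lay on both sides of the controls (log2 -0.22, SE 0.30, edgeR adjusted p = 0.627, and 0.24 with GC offsets). EIF4EBP2 was at 0.30 and the eIF4E transporter gene EIF4ENIF1 at -0.51 (edgeR adjusted p = 0.414 and 0.140).

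**Figure D3:**
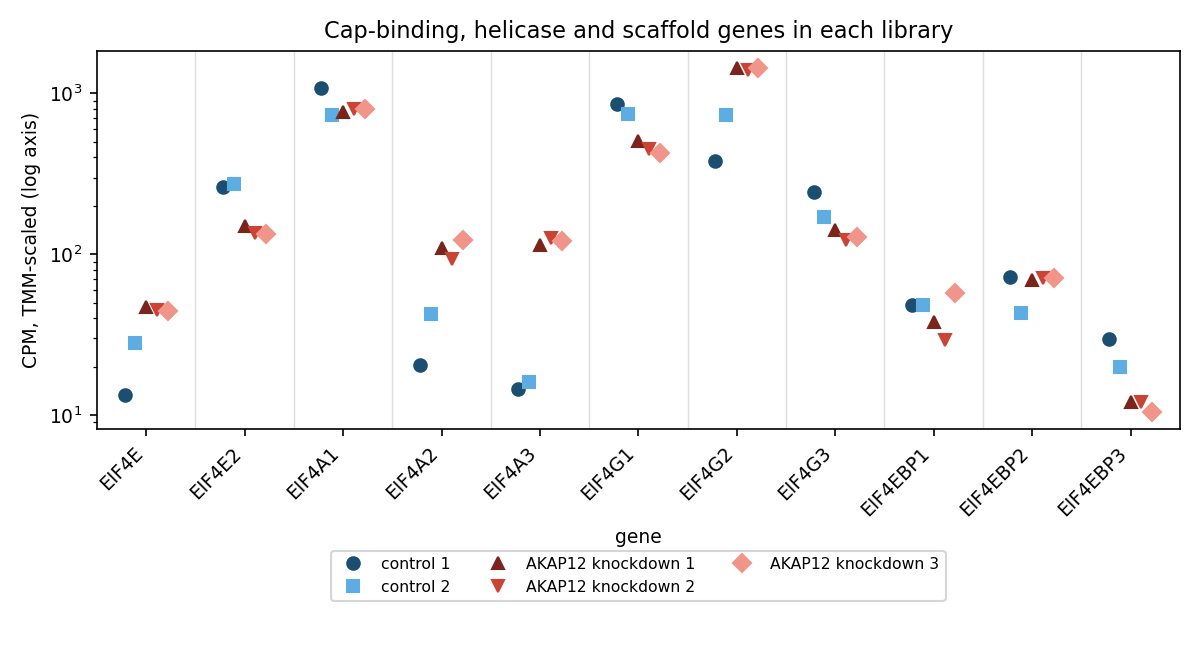
TMM-scaled CPM (y axis, log scale) of 11 cap-binding, helicase, scaffold and repressor genes in each of the 5 libraries, with 1 marker per library. EIF4A2, EIF4A3 and EIF4G2 lie higher in every knockdown library than in either control, EIF4E2, EIF4G1 and EIF4EBP3 lie lower, and the markers of EIF4A1 and EIF4EBP1 overlap.

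The ratio of 2 genes within a library needs no scaling between libraries, and 6 such pairs were compared. The log2 ratio of EIF4A1 to EIF4A2 counts was 5.73 and 4.11 in control cells, against 2.82, 3.08 and 2.72 after knockdown (difference -2.05). For EIF4G1 to EIF4G2 it was 1.18 and 0.03 in control cells, against -1.51, -1.62 and -1.75 after knockdown (difference -2.23). The counts of the 2 scaffold genes thus shifted toward EIF4G2, which does not show which mRNA was more abundant. For EIF4E to EIF4EBP1 the ratio was -1.86 and -0.78 against 0.31, 0.61 and -0.37 (difference 1.503). For EEF1A1 to EEF1A2 the difference was -1.86, with only 19 EEF1A2 reads in control 1. For EIF5A to EIF5A2 it was 1.504, again with both controls in use. Control 1 moved all 5 of these differences: without it they were -1.24 (EIF4A1 to EIF4A2), -1.65 (EIF4G1 to EIF4G2), 0.96 (EIF4E to EIF4EBP1), -0.58 (EEF1A1 to EEF1A2) and 0.22 (EIF5A to EIF5A2). Without control 2 they were -2.855, -2.81, 2.05, -3.14 and 2.78 in the same order. In these 5 pairs the groups did not overlap and the two-sided exact permutation test gave p = 0.1, the smallest that 2 against 3 libraries allow (0.12 adjusted over the 6 pairs). The ratio of EEF2 to EEF2K differed by -0.34 (exact permutation p = 0.3). Since 3' end reads count transcripts and not length, and mapping differs between genes, the ratios show change and not the relative amount of 2 mRNAs.

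**Figure D4:**
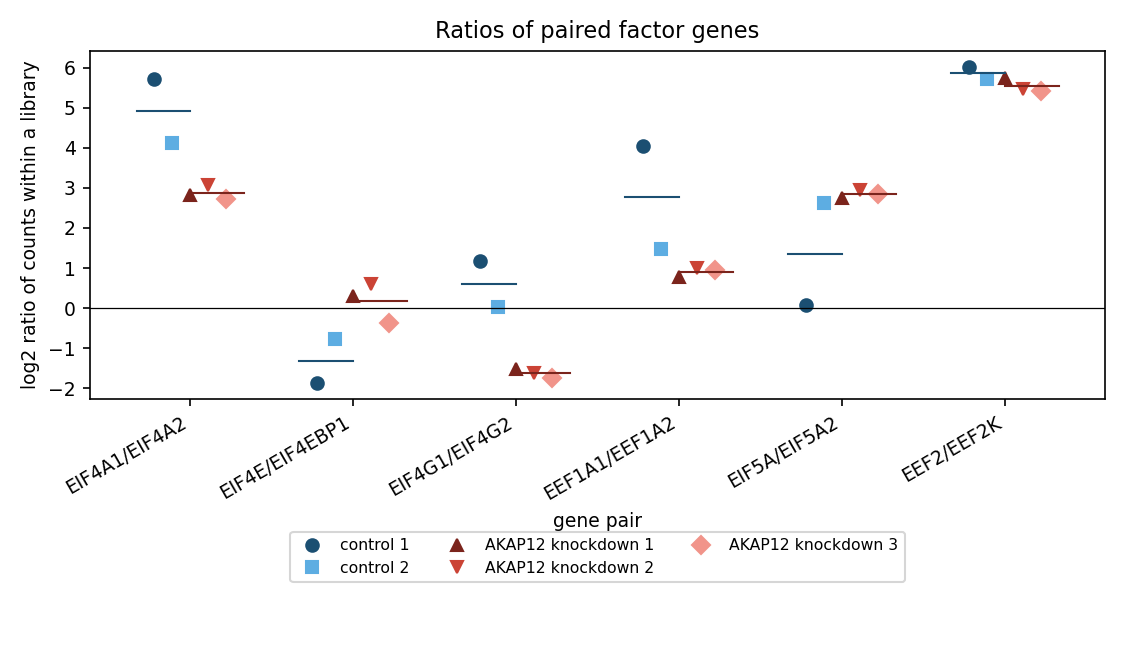
Log2 ratio of raw counts (y axis) for 6 gene pairs in each of the 5 libraries, with short lines at the group means. EIF4A1/EIF4A2 and EIF4G1/EIF4G2 lie lower in all knockdown libraries than in both controls, and for EEF1A1/EEF1A2 and EIF5A/EIF5A2 control 2 lies close to the knockdown and control 1 apart.

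EIF5A, whose protein carries the modified residue hypusine, helps the ribosome past slow peptide bonds. It was at 54.4 and 176 CPM in the controls and at 312, 346 and 421 CPM in the knockdown. The groups did not overlap, as for 60.1% of all tested genes. The log2 change of 1.63 (SE 0.48) missed the threshold (edgeR adjusted p = 0.0513, range 0.00346 to 0.0713), being 1.03 without control 1 and 2.72 without control 2. EIF5A2 was at 0.32 (-0.10 with GC offsets) and the intronless copy EIF5AL1 at -0.22 (0.02 by library size only), with edgeR adjusted p of 0.460 and 0.681. The sequences of EIF5A and EIF5AL1 are alike. Reads that align to both may be missing from both, as the file headers show no option to count reads with several alignments.

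Of the 7 elongation factor genes, EEF1A1 and EEF1D fell and 5 did not pass, a number called that is near the background of 22.6%. EEF1D, an exchange factor of eEF1A (chromosome 8), fell 2.53-fold from 629 and 372 CPM to 200, 210 and 184 CPM (log2 -1.34, SE 0.26, edgeR adjusted p = 0.0219). The knockdown libraries were tight and below both controls, and without control 1 the log2 change was -0.91. EEF1A1 fell from 78.9 and 49.0 CPM to 30, 31.9 and 34.1 CPM (log2 -0.99, SE 0.25, edgeR adjusted p = 0.0356), and its call was lost by library size only (edgeR adjusted p = 0.0532, range 0.0132 to 0.0532). EEF1A1 is known as one of the most abundant mRNAs, yet it held only 238 to 427 reads per library. GENCODE 29 lists 39 pseudogenes named after it, and the file headers show no option to count reads with several alignments, so its value is uncertain. Pseudogenes are also listed for other members, among them EIF4A1 (13), EEF1D (8), EEF1G (8), EIF1 (7), EIF4A2 (5) and EIF4E (5). Their values may carry the same limit.

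EEF2, the translocase, was at 1206 and 1390 CPM in the controls and at 1322, 1386 and 1223 CPM in the knockdown. Its groups overlapped fully, with a log2 change of 0.01 (SE 0.22, edgeR adjusted p = 0.971). EEF1G, another exchange factor subunit, was at 217 CPM in control 1 and 726 CPM in control 2, and at 568, 480 and 433 CPM in the knockdown, between the 2 controls (log2 0.07, SE 0.47, edgeR adjusted p = 0.930). Its sign turned with the library left out, from -0.55 without control 1 to 1.19 without control 2. EEF1B2 was at -0.35, EEF1A2, the form of muscle and neurons, at 0.57, and the eEF2 kinase gene EEF2K at 0.33, with edgeR adjusted p from 0.228 to 0.409.

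The remaining members gave little. EIF3C and its near-identical copy EIF3CL held the same 4 to 10 reads in every library, EIF4E1B and the pseudogene EEF1DP3 held at most 7, EIF3IP1 held none, and these 5 were not tested. Reads that align to several places may be missing from EIF3C and EIF3CL, as from EEF1A1. Their low counts therefore do not show low expression. EIF1AD, named for its eIF1A-like domain, was at 0.79, and EEF1E1-BLOC1S5, a read-through gene that shares exon bases with BLOC1S5 and EEF1E1, at -0.55 (edgeR adjusted p = 0.117 and 0.195).

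Members that rose and members that fell differed in the GC content of their longest annotated transcript. That transcript can hold bases outside the counted exons. EIF4A2 had 5327 transcript bases against 1890 counted exon bases, and EIF3M 5051 against 1720. For EIF6 (1289 against 1469) and EEF1D (3718 against 6320) the transcript was the shorter. The GC values may thus differ from those of the mRNA measured. The longest GENCODE 29 transcript of the 13 that rose had a GC content of 35.1% to 46.4% (median 41.6%), and that of the 8 that fell 46.1% to 60.6% (median 57.2%). EIF1AX had the lowest value of those that rose and EEF1D the highest of those that fell. Over the 59 members Pearson's r of log2 fold change and GC was -0.39 and Spearman's rho -0.44. Over 13725 tested genes with a value (94.4%) rho was -0.20, and the medians were 45.5% for genes that were higher and 55.6% for those that were lower, so the same order holds beyond these genes. These correlations are across genes that share the 5 libraries and are given as a description. When each library's dependence on this GC value was taken out, 11 members were higher and 7 lower (background 19.1%). EIF1AX, EIF3G, EIF3H, EIF4EBP3, EIF4G1 and EIF4G2 then lost their call, and EIF3A and EIF5A were among those that gained one.

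**Figure D5:**
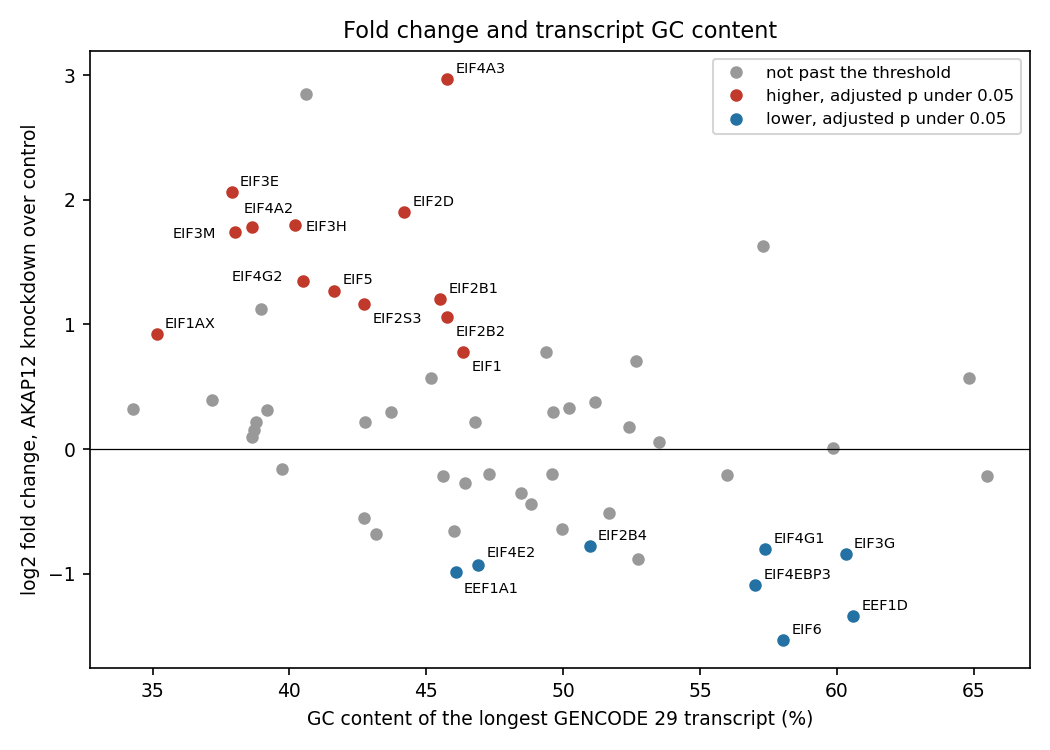
Log2 fold change (y axis) against the GC content of the longest annotated transcript (x axis, percent) for the tested translation factor genes, with called genes named. Genes called higher lie between 35.1% and 46.4% GC and genes called lower between 46.1% and 60.6%.

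A list of 52 partners, regulators and modifying enzymes of these factors was read beside them, and all 52 were tested. Of these, 6 rose and 11 fell (background 22.6% in either direction), and the median log2 fold change was -0.14. By library size only it was 6 higher and 4 lower, and with GC offsets 2 higher and 9 lower. TSFM, the mitochondrial exchange factor for EF-Tu, rose from 7.10 and 6.08 CPM to 43.0, 34.7 and 42.8 CPM (log2 2.62, SE 0.25, edgeR adjusted p = 0.0124). EEF1E1, a scaffold of the tRNA synthetase complex, was at 2.56 (edgeR adjusted p = 0.0203). Its log2 change was 2.015 without control 1 and 3.65 without control 2. The diphthamide gene DPH3 was at 0.91 (edgeR adjusted p = 0.0372) and IMPACT, an inhibitor of the kinase EIF2AK4, at 0.81 (edgeR adjusted p = 0.0427). DPH3 lost its call with GC offsets (edgeR adjusted p up to 0.0808, lowest 0.0164), and IMPACT with GC offsets and with RLE factors (up to 0.101, lowest 0.0303).

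DPH1, which starts diphthamide synthesis on eEF2, fell from 374 and 207 CPM to 88.3, 98.0 and 91.2 CPM (log2 -1.65, SE 0.27, edgeR adjusted p = 0.0175). EEFSEC, the selenocysteine elongation factor, was lower by a log2 change of -1.56 (edgeR adjusted p = 0.0183). ATF4, whose mRNA is translated when eIF2 is phosphorylated, fell from 544 and 751 CPM to 350, 327 and 289 CPM (log2 -1.01, SE 0.23, edgeR adjusted p = 0.0279), a call lost by library size only (edgeR adjusted p = 0.0742, range 0.00134 to 0.0742). RPTOR, the substrate-binding subunit of mTORC1, was at -1.25 (edgeR adjusted p = 0.0314, range 0.00839 to 0.0625 and lost with GC offsets). Another partner pair, picked after its values were seen, went opposite ways, with DENR at 1.14 and MCTS1, which binds it in recycling the small subunit, at -0.93 (edgeR adjusted p = 0.0470 and 0.0337, each lost by library size only, and DENR with GC offsets too, with adjusted p up to 0.0954 and 0.0562).

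The authors' deposited table of the comparison gives an adjusted p for 61 members, of which 15 with a positive and 10 with a negative fold change were under 0.05, against 25.3% of 16104 genes. The direction of that table is not stated, but its fold changes correlate with the fitted ones at r = 0.999 across genes, so positive means higher in the knockdown. It rests on the same 5 libraries.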

How the data were processed

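Members and gene lists were chosen with earlier results of these data known. The deposited counts are whole reads per gene over exons, made by the authors with featureCounts 1.6.2, per the file headers, with reads over several genes counted for each and no strand option. Antisense and overlapping genes therefore cannot be told apart. STAR 2.7 and hg38 are named in the submitters' processing notes. The authors' deposited comparison holds log2 fold changes, a mean signal, standard errors and a test statistic (score) and p-values, and DESeq2 1.22 is named in the notes.

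For trimming and duplicate reads, the steps were not given in the sources used here. The median member was compared with all tested genes, and 3 marker lists (epithelial, stromal, blood) were summed. Genes were filtered with filterByExpr (minimum count 10), scaled with TMM factors and compared by edgeR 4.0.16 (quasi-likelihood, two-sided, R 4.3.3) over all genes, with Benjamini-Hochberg adjustment at 0.05. SE is the log2 fold change over the square root of F. CPM are TMM-scaled unless said otherwise. Named in full were the members past the threshold and 12 central factors, and up to 4 related genes in each direction. Alternatives were a stricter filter (5 CPM in 2 libraries), no filter, scaling by library size alone or RLE factors, DESeq2 1.42.0, limma-voom (3.58.1), the replicate block and each library left out. GC offsets (smooth span 0.2) and removal of TERT and short RNA genes were chosen later, with the data in view. The fit was tested on simulated data first. A count of 0 allows up to 0.322 to 0.608 CPM (3 counts), for counting error only.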

Additional observations from a re-analysis of the deposited data

How the results depend on the processing

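Directions of the 21 called members held in every fit. The groups of all 21 did not overlap, so leaving out a library could hardly turn a direction, and this is no separate support. Numbers are counts of calls, or log2 changes for genes, medians and ratios, and the cause of each move was not tested. With the replicate block, edgeR called 185 genes higher and 25 lower, 1 member higher (EIF4A3, adjusted p = 0.0209) and 0 lower, and 2 related genes higher and 0 lower, with medians of 0.86 (eIF2) and 0.57 (eIF4 paralogs). Nothing in the labels says whether equal replicate numbers mark pairs. Same-numbered deviations correlate at -0.053 and -0.081. With 2 controls the deviations of one mirror those of the other, so these values cannot settle whether libraries were paired. By library size only, 982 genes, 4 members and 4 related genes were lower, EIF2A was at 0.068, EIF2AK4 at 0.007, EIF4A1 at 0.036 and EIF5AL1 at 0.016, and medians were -0.125 (eEF1), 0.71 (eIF2), 0.36 (eIF2 kinases), 0.49 (eIF3), 0.655 (eIF4 paralogs), -0.155 (eIF4E repressors), 0.66 (eIF4F) and 0.42 (all members). With GC offsets, chosen after seeing the data, 2 related genes were higher, EIF2AK2 was at -0.083, EIF4EBP1 at 0.24, EIF5A2 at -0.10 and EIF5B at -0.14, and medians were -0.083 (eIF2 kinases), 0.13 (eIF4 paralogs), -0.16 (eIF4E repressors), -0.10 (eIF5A) and 0.13 (all members). With limma-voom medians were 0.82 (eIF2), 0.60 (eIF4 paralogs) and 0.26 (all members), and with the stricter filter 0.198 (eIF4 paralogs). EEF2 was at -0.001 (DESeq2), -0.025 (RLE factors) and -0.005 (stricter filter). AKAP12 passed with DESeq2 (-1.06), limma-voom (-0.98), no filter (-0.996), the stricter filter (-1.057), GC offsets (-1.057) and without TERT and short RNA genes (-1.04, also added after seeing the data).

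Leaving out 1 library at a time gave 0 to 4625 genes higher and 0 to 4186 lower, 0 to 23 members higher and 0 to 19 lower, and 0 to 17 related genes higher and 0 to 22 lower, each 0 coming from a fit without a knockdown library. AKAP12 ran from -1.42 to -0.52. Signs turned for EIF2A (-0.37 to 0.073), EEF1A2 (-0.03 to 1.865), EEF1G (-0.55 to 1.185), EEF2 (-0.083 to 0.115), EIF2S2 (-0.044 to 1.68), EIF3B (-0.40 to 0.004), EIF3D (-0.135 to 0.59), EIF3J (-0.095 to 0.63), EIF4E3 (-0.38 to 1.502), EIF4EBP2 (-0.034 to 0.71), EIF4A1 (-0.46 to 0.11), EIF5A2 (-0.066 to 0.80), EIF5AL1 (-0.58 to 0.195) and EIF1B (-0.08 to 0.57). Medians ran from -0.55 to -0.31 (eEF1), 0.485 to 1.52 (eIF2), 0.17 to 0.46 (eIF3), -0.38 to 0.96 (eIF4 paralogs), 0.40 to 0.66 (eIF4F), -0.066 to 0.80 (eIF5A), 0.07 to 0.57 (start site factors) and 0.052 to 0.22 (all members). Pair differences ran from -2.855 to -1.24 (EIF4A1 to EIF4A2), -2.81 to -1.65 (EIF4G1 to EIF4G2), -3.14 to -0.58 (EEF1A1 to EEF1A2) and 0.225 to 2.78 (EIF5A to EIF5A2). Low counts limit EIF3F in control 1, EIF2D and EIF4E3, and in control 1 also EEF1A2, EIF1AD and EIF3E (19, 28 and 36 reads).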
